A study of Mus musculus with 14 samples.

Results

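Enzymes that modify drugs, dietary chemicals, bile acids and steroids belong to a few large gene families, and 7 of them were followed here by RNA-seq in intestinal tissue of WT and MiR-29ab1-/- mice. The members were all protein-coding genes listed in both deposited tables whose symbols begin with Akr1, Aldh, Ces, Cyp, Gst, Sult or Ugt in the form used for the enzyme families. This rule used names and no measured value, but it was chosen with earlier results of these data known. It gave 222 genes, of 21933 protein-coding genes in the table without DSS and 22046 in the table after DSS. The Cyp family had 100 members, Gst 23, Ugt 22, Aldh 21, Sult 21, Ces 19 and Akr1 16.

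The 14 mice, titled C57BL/6N, were 4 WT and 4 miR-29ab1-/- without DSS, and 3 WT and 3 miR-29ab1-/- given DSS (dextran sulphate sodium, a polymer that injures the colon lining). The study's text gives 3.5% DSS for 3 days and an age of 8 to 12 weeks. The deletion removes the chromosome 6 genes of miR-29a and miR-29b-1 from the whole animal, while the WT mice carry both. The 2 experiments sit in separate tables with their own gene lists, so DSS and experiment cannot be told apart, and genotypes were compared within each experiment.

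In these families oxidation or reduction usually comes first and a water-soluble group is joined on afterwards. Cyp enzymes (cytochrome P450) insert oxygen, Aldh enzymes oxidise aldehydes, Akr1 enzymes (aldo-keto reductases) reduce aldehydes and ketones, and Ces enzymes (carboxylesterases) split esters. Gst enzymes then add glutathione, Sult enzymes add sulphate and Ugt enzymes add glucuronic acid. In the intestine this activity is known mainly from the absorptive epithelium.

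Total counts were 14231157 to 16100607 reads in the MiR-29ab1-/- mice and 17177177 to 18185020 in the WT mice without DSS, so every WT library was larger than every MiR-29ab1-/- library there. After DSS they were 20076719 to 23153149 and 20506610 to 22990024 reads. Mir29a had no read in any mouse (mature miRNAs were not measured), and Lncpint, a long RNA gene beside the deleted locus, stood at 93.7 to 201 CPM (reads scaled to library size) in MiR-29ab1-/- mice against 0.417 to 1.28 in WT mice without DSS. The labels call the tissue crypts of the small intestine, while the study's text describes colon. Of the colon markers, the carbonic anhydrase Car1 had 930 to 5170 CPM per mouse. Hoxb13, a gene of the hindgut, had 98.8 to 253 CPM. The 9 small intestine markers found summed to 185 to 487 CPM, of which Fabp2 alone had 145 to 403 CPM. Slc10a2 had 9.8 to 66.1 CPM and Alpi 9.97 to 31.1 CPM. Apoa4, Lct and Gata4 had at most 0.11, 0.33 and 0.854 CPM in any mouse. The 5 smooth muscle markers summed to at most 1.86 CPM. Without DSS, 2 of the 6 hepatocyte markers had no read in any mouse. After DSS, leaving out MiR-29ab1-/- mouse 3 raised the genes at an unadjusted p under 0.05 from 1078 to 2530 of all genes tested. Leaving out any other mouse gave 483 to 1085 genes. Mouse 3 was thus picked by the calls themselves. Its share of mitochondrial reads, 7.43%, lay inside the WT range of 6.15% to 8.81%, while MiR-29ab1-/- mice 1 and 2 had 14.8% and 20.2%. Because the counts moved this much, counts and calls after DSS are also given without mouse 3, and those fits carry that choice.

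MiR-29 reaches its targets through its seed, bases 2 to 8 of the mature strand, which pairs with the 3′ end of a messenger RNA. The mature strands are shown because the seed sets which members could carry a site. Capitals mark the seed in the RefSeq sequences (GRCm38.p6).
miR-29a-3p, chr6:31062673-31062694, minus strand: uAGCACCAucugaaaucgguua
miR-29b-3p, chr6:31063025-31063047, minus strand: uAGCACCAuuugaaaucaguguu
miR-29c-3p, chr1:195037600-195037621, plus strand: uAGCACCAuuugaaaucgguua
The 3 strands shared 1 seed, and the chromosome 1 locus, which also encodes miR-29b-3p, is outside the deletion.

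Few of the enzymes carried a match to that seed. In the GENCODE vM21 transcripts, 11 of the 214 members with an annotated 3′ UTR held TGGTGCT, the reverse complement of the seed, in that UTR on the transcribed strand (5.14%). Among all protein-coding genes 2908 of 21037 held it (13.8%). A gene counted if any of its transcripts held the match. UTR length and number of transcripts were not matched between members and all genes, and their part in the shares was not tested. The 8-letter form TGGTGCTA was in 1 member (Cyp2a12, 0.467%) and in 3.0% of all genes. The matches in members whose genotype difference could be tested are shown, with the match in capitals.
Akr1e1, chr13:4591521-4591527, minus strand: tggcatacagcTGGTGCTcaacagtaatt
Gstz1, chr12:87164014-87164020, plus strand: taaggcagtcaTGGTGCTggagaggtagc
Cyp51, chr5:4082229-4082235, minus strand: tgttgctggagTGGTGCTgcacacctgta
Cyp26b1, chr6:84571565-84571571, minus strand: ttggtatgagcTGGTGCTgtgtgtgtgtt
Akr1e1 reduces a glucose-derived sugar, Gstz1 isomerises a tyrosine breakdown product, Cyp51 makes sterols and Cyp26b1 clears retinoic acid. Without DSS the log2 fold changes (MiR-29ab1-/- over WT) were 0.49 for Akr1e1, -0.10 for Gstz1 and -0.02 for Cyp51, none at an unadjusted p under 0.05, and Cyp26b1 was too low to test. The other 7 members with a match (Akr1d1, Cyp21a1, Cyp2a12, Cyp2c38, Cyp3a16, Cyp4f39 and Sult2a6) were too low to test in either experiment. A match is a run of letters and no measured binding.

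The level of the members was far from even. In each experiment 56 of the 222 had no read in any mouse, among them 8 of the 9 Sult2 genes, all 3 Ugt2a genes and both Ugt3a genes, which had none in any of the 14 mice. In WT mice without DSS, 53 members reached a mean of 10 RPKM (CPM divided by gene length in kb), and this scale is used wherever 2 genes are compared. Cyp2c55, a P450 that oxidises arachidonic and linoleic acid, had the highest level at 457 ± 157 RPKM (SD, n = 4). It made up 49.7% of the summed RPKM of all Cyp genes.

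Next came Sult1a1, which sulphates phenols, at 213 ± 38.1 RPKM, and Aldh1b1, a mitochondrial aldehyde dehydrogenase of intestinal stem and progenitor cells, at 175 ± 25.1 RPKM. These 2 ranges overlapped. Gsto1, an omega-class transferase, had 167 ± 27.5 RPKM, the general aldehyde reductase Akr1a1 147 ± 6.93 RPKM and the mu-class Gstm1 141 ± 23.2 RPKM. The leading Ugt was Ugt2b34 at 108 ± 11.3 RPKM, the mitochondrial Aldh2 had 99.5 ± 13.2 RPKM, and Sult1d1, which sulphates catecholamines and other small amines and phenols, had 98.1 ± 9.79 RPKM.

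The carboxylesterases were led by 3 genes of 1 cluster, Ces2e at 58.1 ± 6.92, Ces2c at 53.7 ± 8.01 and Ces2a at 44.1 ± 9.33 RPKM, whose spreads overlapped. Among reductases Akr1c12 (84.0 ± 4.52 RPKM) and Akr1c13 (78.1 ± 10.6 RPKM) followed Akr1a1. After Cyp2c55 the P450s dropped to Cyp2c65 at 62.5 ± 11.2 and Cyp2d34 at 56.6 ± 16.8 RPKM. Reads of close relatives, such as the Ugt1a genes that share exons, Akr1c12 and Akr1c13, the Cyp2d genes, the Ces1 genes and the Gstp genes, may have been split between them in counting, and their single values are uncertain.

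**Figure D1:**
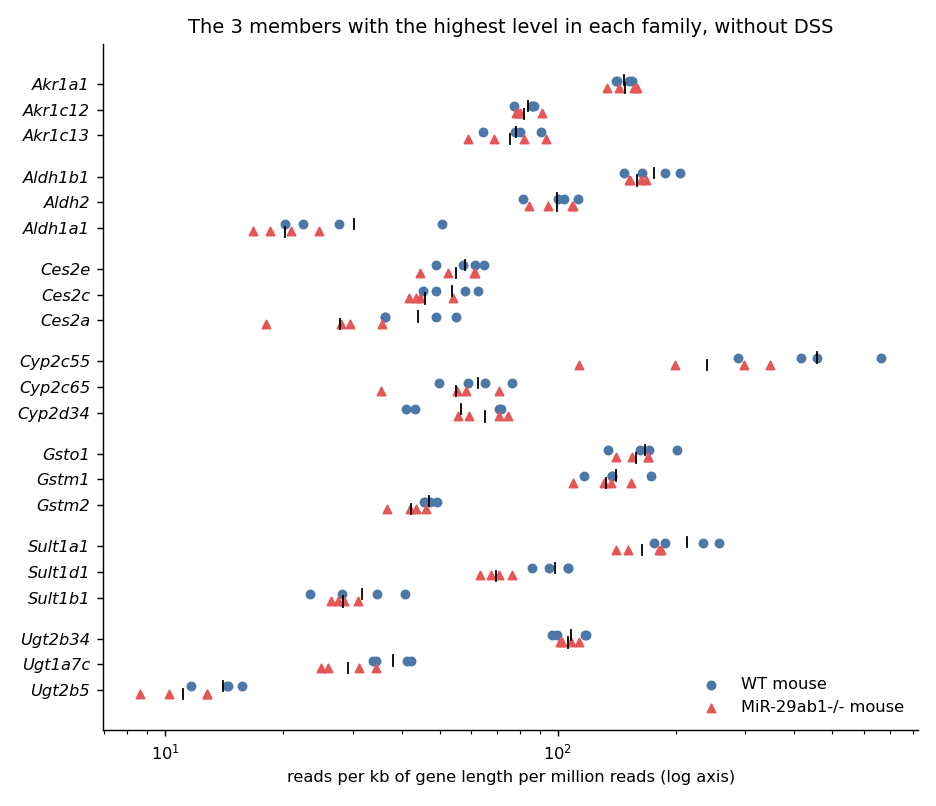
Level of the 3 highest members of each family without DSS, in RPKM (log axis), for each WT mouse (circles) and each MiR-29ab1-/- mouse (triangles), with black lines at the group means. Cyp2c55 has the highest WT mean (457) and the triangles of Sult1d1 lie below all of its circles.

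The genotype comparison without DSS asked which of these enzymes changed when miR-29a and miR-29b-1 were deleted in otherwise untreated mice. More members were lower than higher in MiR-29ab1-/- mice. Of the 222, 106 had enough reads to be tested, 99 of them with at least 10 reads in every mouse, and no tested member had under 10 reads in all mice of either genotype. At an unadjusted p under 0.05, the study's cutoff, 16 were lower (15.1% of members, against 1.58% of all genes tested) and 3 were higher (2.83% against 2.09%). The fold change was negative for 74 of the 106 (69.8%, against 50.5% of all genes), with a median of -0.10 on the log2 scale beside -0.0016 over all genes.

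None of the 106 passed at an adjusted p under 0.05 in edgeR's quasi-likelihood test, where 3 genes were higher (0.0194%) and 0 lower among 15441. DESeq2 on the same genes placed 3 members past it, Akr1b8, Sult1d1 and Ugt8a, all lower, among 23 genes in either direction. In 7 members every MiR-29ab1-/- mouse was below every WT mouse (6.6%, against 0.92% of all genes), and in 0 members was it above (1.11% of all genes). With each mouse left out in turn, 10 to 22 members were lower, 9.17% to 20.4% of those tested, while the share of all genes was 1.09% to 2.14%. The lowest of these counts, 10, came without WT mouse 3, and the highest came without WT mouse 2. The 16 were spread over 6 of the 7 families: 4 Ugt, 3 Sult, 3 Cyp, 2 Gst, 2 Ces and 2 Akr1, and no Aldh gene.

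**Figure D2:**
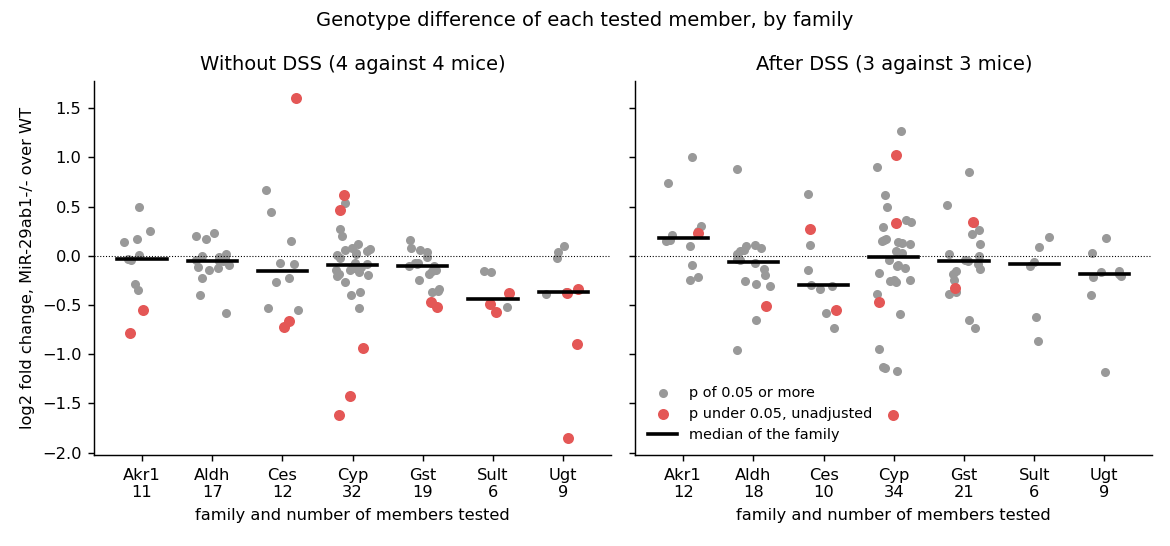
Log2 fold change of MiR-29ab1-/- over WT for every tested member, by family, without DSS and after DSS (red, unadjusted p under 0.05; black line, median of the family; the number under each family counts the members tested). Without DSS the lines of Sult (-0.44) and Ugt (-0.37) lie lowest and all 6 Sult points are below 0; after DSS these lines are at -0.08 and -0.18.

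Of the 21 sulphotransferases, 6 could be tested without DSS. All 6 tested Sult genes had a negative fold change, with a median of -0.44, and 3 of them (Sult1d1, Sult1a1 and Sult1c2) passed the unadjusted cutoff. Sult1d1 (chr5:87554645-87569027, minus strand) had 234, 211, 261 and 261 CPM in the WT mice and 167, 174, 188 and 156 CPM in the MiR-29ab1-/- mice. The groups did not overlap, with a gap between 188 and 211 CPM. Its log2 fold change was -0.49 ± 0.10 (SE; adjusted p = 0.613 by edgeR), a change of -29.0%, and it stayed between -0.55 and -0.45 with each mouse left out.

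Sult1a1 (chr7:126672865-126676432, minus strand) had 387, 282, 352 and 265 CPM in WT mice and 272, 211, 276 and 228 CPM in MiR-29ab1-/- mice. Its groups overlapped, because the lowest WT mouse was below the 2 highest MiR-29ab1-/- mice, and its log2 fold change was -0.38 ± 0.14 (adjusted p = 1.0 by edgeR). Sult1c2, another sulphotransferase of phenols, went from 46.8 ± 14.1 to 31.6 ± 8.67 CPM, with a log2 fold change of -0.57. Both lost the cutoff in some of the 8 fits that left out a mouse (4 for Sult1a1 and 5 for Sult1c2). Sult1b1, which sulphates thyroid hormones, had 88.2 ± 21.1 and 78.8 ± 5.34 CPM and did not pass. Summed over the family, WT mice had 781, 666, 738 and 714 CPM and MiR-29ab1-/- mice 577, 512, 612 and 507 CPM, 2 groups that did not overlap.

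The glucuronosyltransferases gave the next lowest median, -0.37, with 7 of 9 tested genes negative and 4 at the cutoff. The most abundant of them, Ugt2b34, was not among these: it had 465 ± 48.6 CPM in WT mice and 458 ± 23.4 CPM in MiR-29ab1-/- mice, and its log2 fold change was -0.02. Ugt1a7c, a Ugt1 isoform of the gut, had 146, 143, 175 and 179 CPM against 105, 132, 146 and 110 CPM. The groups overlapped, since the highest MiR-29ab1-/- mouse stood above the lowest WT mouse, and its log2 fold change was -0.38 ± 0.13.

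Ugt8a, which adds galactose to ceramide in myelin-forming cells and stands at a low level here, had 3.52, 2.80, 3.94 and 4.46 CPM in WT mice and 0.203, 1.096, 1.52 and 1.22 CPM in MiR-29ab1-/- mice. All WT mice were above all MiR-29ab1-/- mice, and its log2 fold change of -1.85 ± 0.44 (adjusted p = 0.819 by edgeR) had the largest size among the 19 members at the cutoff. Ugt2b36 went from 3.47 ± 0.97 to 1.85 ± 0.73 CPM (-0.90) and Ugt2b5 from 26.1 ± 3.20 to 20.6 ± 3.8 CPM (-0.34). In 3 and 5 of the 8 fits without a mouse, these 2 missed the cutoff.

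Akr1b8 had the smallest unadjusted p of all members. It is an aldo-keto reductase of the intestinal epithelium that reduces lipid-derived aldehydes and retinal. At chr6:34354119-34368463 on the plus strand, it had 68.6, 48.4, 54.1 and 53.5 CPM in WT mice and 28.1, 34.7, 39.4 and 28.4 CPM in MiR-29ab1-/- mice. The genotypes did not overlap. The log2 fold change was -0.78 ± 0.14, with a 95% interval of -1.09 to -0.47 and an unadjusted p of 0.000191 (adjusted p = 0.368 by edgeR), and it lay between -0.88 and -0.66 with each mouse left out.

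Over the reductases the median was -0.03 and 6 of 11 tested genes were negative. Akr1c19, a relative of the hydroxysteroid dehydrogenases, was the other Akr1 gene at the cutoff, with 161, 137, 184 and 282 CPM in WT mice and 111, 135, 139 and 137 CPM in MiR-29ab1-/- mice. These groups overlapped and 1 WT mouse at 282 CPM set the upper end. The log2 fold change was -0.55 without any mouse left out and -0.30 at its smallest with 1 left out. Akr1a1, the most abundant of the family, had 404 ± 19.1 and 407 ± 32.7 CPM.

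Within the glutathione transferases 15 of 19 tested genes were negative, with a median of -0.10. Gstm3, a mu-class enzyme, had 50.4, 42.6, 53.9 and 51.6 CPM in WT mice and 41.0, 37.6, 35.5 and 29.0 CPM in MiR-29ab1-/- mice. The lowest WT mouse stood just above the highest MiR-29ab1-/- mouse, and the log2 fold change was -0.47 ± 0.12 (adjusted p = 0.939 by edgeR). Gstp1, the pi-class enzyme, went from 7.18 ± 0.64 to 5.01 ± 0.16 CPM without overlap (-0.52 ± 0.16). The abundant Gsto1 (337 ± 55.6 and 321 ± 28.6 CPM) and Gstm1 (207 ± 34.2 and 196 ± 27.1 CPM) did not pass, with log2 fold changes of -0.07 and -0.09.

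Of the carboxylesterases, 2 were lower and 1 higher. Ces2a had 85.7, 85.6, 116 and 130 CPM in WT mice and 66.2, 83.9, 69.6 and 42.5 CPM in MiR-29ab1-/- mice. Its groups were apart by less than 2 CPM, and its log2 fold change was -0.67 ± 0.21. Ces1g, an esterase that acts on lipids, went from 91.8 ± 24.7 to 55.5 ± 12.7 CPM with overlap (-0.73 ± 0.23). Ces1c, a plasma esterase, ran the other way from 2.96 ± 1.98 to 9.001 ± 3.60 CPM, a log2 fold change of 1.60 ± 0.49, and its groups overlapped.

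Among 32 tested P450s, 3 were lower (Cyp2w1, Cyp2c55 and Cyp4b1) and 2 higher (Cyp2d12 and Cyp2d9), with a median of -0.10. Cyp2w1, a P450 known from fetal colon and colon tumours, had 10.6, 7.40, 13.3 and 5.68 CPM in WT mice and 1.01, 5.30, 2.67 and 3.01 CPM in MiR-29ab1-/- mice. All MiR-29ab1-/- mice were below the lowest WT mouse, and the log2 fold change was -1.62 ± 0.44. Cyp2c55 had 913, 574, 1329 and 831 CPM against 397, 691, 594 and 225 CPM. Its ranges overlapped and mice of the same genotype differed by over 2-fold, and 4 of 8 fits without a mouse missed the cutoff (log2 fold change -0.93 ± 0.37).

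Cyp4b1, a P450 of fatty acids and foreign amines, went from 20.1 ± 6.73 to 7.47 ± 5.18 CPM (-1.43 ± 0.57). Cyp4b1 and Sult1c2 were named after their values were seen, and Cyp4b1 missed the cutoff in 4 of 8 fits without a mouse. Cyp2d9 and Cyp2d12, of a cluster of near-identical genes, went from 9.96 ± 0.65 to 15.2 ± 5.52 CPM (0.61) and from 18.7 ± 2.16 to 25.9 ± 6.75 CPM (0.47). Both upward differences had overlapping groups and missed the cutoff in 5 and 2 of 8 fits without a mouse. Aldehyde dehydrogenases gave no member at the cutoff: 13 of 17 tested genes were negative with a median of -0.05, and the stem cell enzyme Aldh1b1 had 403 ± 57.7 and 364 ± 17.9 CPM.

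Sums over members describe where the reads went. Together the members took 0.735% to 0.884% of all reads in WT mice without DSS and 0.664% to 0.747% in MiR-29ab1-/- mice. The summed level was 8051, 7534, 8353 and 8952 CPM in WT mice against 6954, 7251, 7504 and 6777 CPM. The lowest WT sum was just above the highest MiR-29ab1-/- sum. Without Cyp2c55 the sums were 6959 to 8121 and 6552 to 6910 CPM, still apart.

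**Figure D3:**
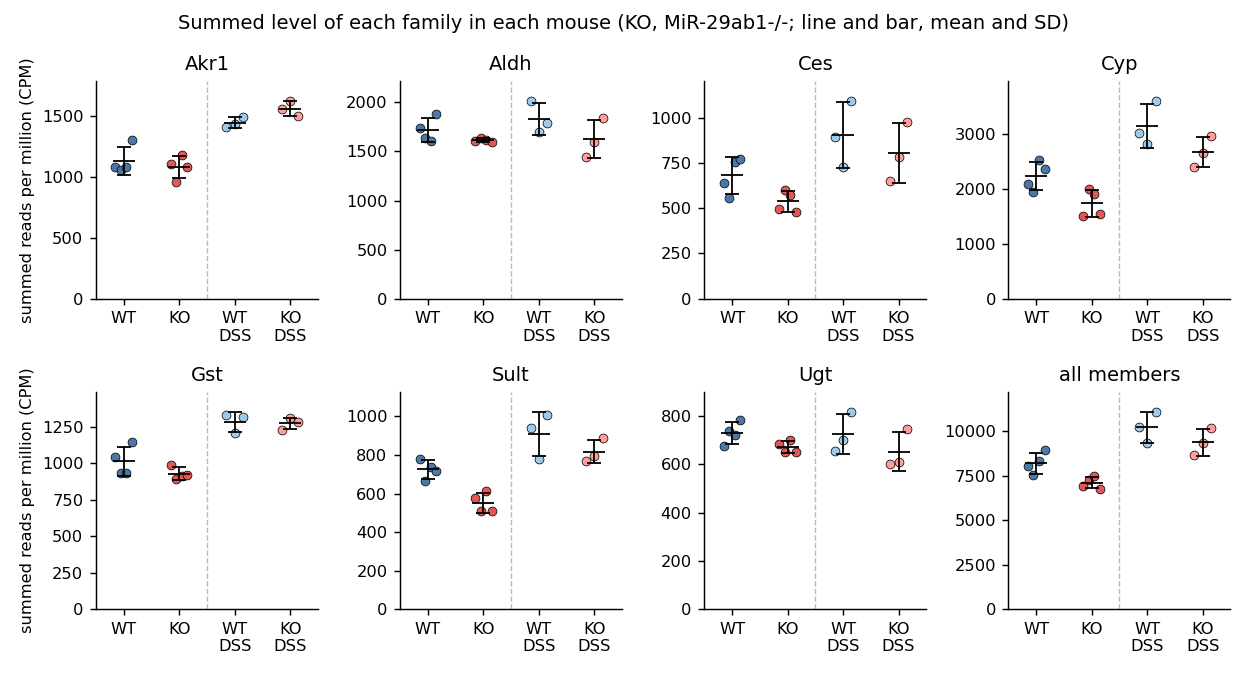
Summed level of each family and of all members in every mouse, in CPM, by group (points, mice; line and bar, mean and SD; KO, MiR-29ab1-/-; the dashed line separates the 2 experiments, whose levels come from separate tables). Without DSS the Sult sums of MiR-29ab1-/- mice (507 to 612) lie below those of WT mice (666 to 781), and after DSS the 2 genotypes overlap.

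Markers of cell position were read in the same mice without DSS, where 1.58% of all genes tested were lower at the cutoff. Of the 6 surface colonocyte markers 1 was lower (Guca2a, from 784 ± 102 to 586 ± 50.1 CPM), and their sum was 1670 to 2480 CPM in WT and 1530 to 2100 CPM in MiR-29ab1-/- mice. Of the 6 crypt markers 1 was lower (Smoc2, log2 fold change -0.29), with sums of 272 to 361 and 292 to 325 CPM. The colon marker Car1 had 2450 to 4140 CPM in WT and 930 to 3720 CPM in MiR-29ab1-/- mice, and neither it nor Hoxb13 (98.8 to 221 and 144 to 226 CPM) passed the cutoff. In bulk tissue, fewer cells of a type and less RNA per cell cannot be told apart. The other lists gave 0 markers at the cutoff without DSS, with sums of 68.3 to 108 CPM in WT and 88.5 to 164 CPM in MiR-29ab1-/- mice for hepatocytes, 28.8 to 119 and 25.7 to 130 CPM for T cells, 5.89 to 9.72 and 3.05 to 31.0 CPM for B and plasma cells, 1.45 to 6.61 and 3.35 to 10.9 CPM for macrophages and neutrophils, and 5.74 to 23.3 and 4.06 to 34.3 CPM for fibroblasts. The part of these markers, and of the smaller MiR-29ab1-/- libraries, in the enzyme differences was not tested.

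Enzymes and cofactor genes outside the 7 families were read from fixed lists. Over all genes tested without DSS, 1.58% were lower and 2.09% higher at the same unadjusted cutoff. Among 28 tested partner enzymes, 5 were lower and 0 higher without DSS: Fmo5, a flavin monooxygenase, Por, the electron donor of microsomal P450s, Nqo1, a quinone reductase, and Hsd3b3 and Hsd17b2, which act on steroids. Fmo5 went from 30.7 ± 4.16 to 17.0 ± 4.14 CPM (-0.86 ± 0.18) and Por from 122 ± 9.01 to 99.3 ± 7.44 CPM (-0.30 ± 0.09). Both had MiR-29ab1-/- maxima (20.4 and 106 CPM) below the WT minima (24.9 and 114 CPM). Over all genes tested, 0.92% lay apart in this way.

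Of 11 genes that supply cofactors, 2 were lower. They were Ugdh, which makes the sugar donor of Ugt enzymes (377 ± 70.5 to 250 ± 24 CPM, -0.59 ± 0.14), and Papss2, which makes the sulphate donor of Sult enzymes (440 ± 18.4 to 307 ± 82.2 CPM, -0.52 ± 0.16). Papss1, the other Papss gene of the list, had 184 ± 14.9 and 180 ± 26.3 CPM. Of 17 tested regulators 1 was higher, Ahr, the receptor for dioxin-like ligands (19.2 ± 2.30 to 23.6 ± 1.19 CPM, 0.29 ± 0.11), and 0 were lower. The hepatocyte-type regulator Hnf4a (728 ± 74.3 and 708 ± 84.0 CPM) did not pass. None of 12 carriers passed in either direction. None of the list genes passed after adjustment in edgeR.

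Akr1b8 lies 3.29 Mb from Mir29a on chromosome 6, so the members within 15 Mb of the deletion were read together. Of these 6, Akr1d1 was too low to test and the other 5 were tested in both experiments. Akr1b3, a neighbour of Akr1b8 that reduces glucose, had 46.9, 56.2, 45.8 and 71.1 CPM in WT mice and 60.6, 58.2, 63.0 and 60.5 CPM in MiR-29ab1-/- mice without DSS. Its groups overlapped and the log2 fold change was 0.14 ± 0.13. On the other side of Akr1b8, Akr1b10 (6.19 ± 3.04 and 7.37 ± 0.74 CPM) and Akr1b7 (1.02 ± 0.52 and 0.832 ± 0.13 CPM) did not pass, nor did Gstk1 (44.0 ± 8.58 and 34.2 ± 8.52 CPM) at 11.18 Mb. Akr1b8 was thus the gene at the cutoff among the 4 Akr1b genes in these mice.

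**Figure D4:**
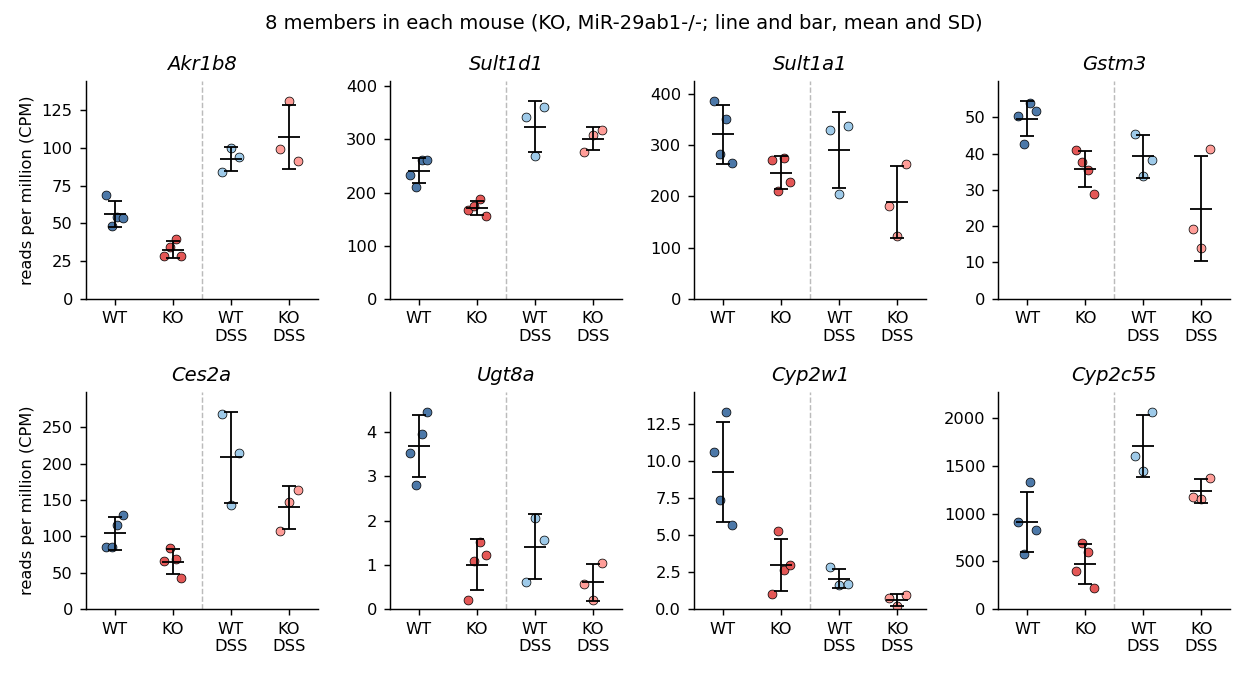
Level of 8 members in every mouse, in CPM, by group (points, mice; line and bar, mean and SD; KO, MiR-29ab1-/-; the dashed line separates the 2 experiments). Akr1b8 and Sult1d1 are separated by genotype without DSS and overlap after DSS, while Cyp2w1 is lower in all MiR-29ab1-/- mice of both experiments.

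The comparison after DSS asked the same of mice with an injured colon, and its counts depended on the fit and on single mice. Of 110 tested members, 5 were higher (4.55%, against 3.98% of all genes tested) and 5 lower (4.55% against 3.25%) at an unadjusted p under 0.05. None passed at an adjusted p under 0.05 in edgeR (2 genes in all, 0.0134%, both higher) or in DESeq2, and DESeq2 gave 8 higher (7.27%, against 4.64% of all genes) and 11 lower (10% against 3.27%) at the unadjusted cutoff. The groups were apart in 7 members upwards (6.36%, against 5.33%) and in 7 downwards (6.36%, against 6.28%), shares near those of all genes. The fold change was negative for 62 of the 110 (56.4%, against 51.0%). With each mouse left out in turn, 1 to 8 members were higher (0.893% to 7.08%, against 1.75% to 8.43% of all genes) and 1 to 25 lower (0.885% to 22.1%, against 1.41% to 8.13%). Every one of the 6 mice moved at least 1 of these counts by over 1.5 times: without WT mice 1, 2 and 3 the lower members numbered 3, 10 (9.09%, against 3.44% of all genes) and 1, and without MiR-29ab1-/- mice 1 and 2 they numbered 1 and 2. Cyp2w1 and Cyp2c66 kept their call in all 6 of those fits.

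Mouse 3 of the MiR-29ab1-/- group after DSS weighed on these counts. Without it 25 members were lower (22.1% of those tested, against 8.13% of all genes) and 8 higher (7.08% against 8.43%). Gstm3 and Cyp4b1 then passed at an adjusted p under 0.05, among 93 of all 15283 genes tested. With all mice 2 of 14908 genes had passed. For Gstm3 the MiR-29ab1-/- mice had 19.1, 14.1 and 41.3 CPM, the last from mouse 3, and the WT mice 45.5, 33.9 and 38.2 CPM. For Cyp4b1 they had 4.22, 3.08 and 11.6 CPM against 17.9, 9.50 and 15.6 CPM. In both genes mouse 3 lay inside the WT range and the other 2 below it. The crypt marker Ascl2 was lower in all MiR-29ab1-/- mice, at 0.106 to 1.96 CPM against 2.39 to 5.57 CPM in WT mice. The 6 crypt markers summed to 73.7 to 140 CPM in MiR-29ab1-/- mice and 139 to 147 CPM in WT mice. Mki67 made up most of that sum (means of 97.8 and 114 CPM, log2 fold change -0.22). The log2 fold changes of Lgr5, Smoc2 and Axin2 were -1.23, -1.29 and -1.09. These 4 markers did not pass the cutoff, and Olfm4 was too low to test. The share of mitochondrial reads was 14.8%, 20.2% and 7.43% in the 3 MiR-29ab1-/- mice and 6.15% to 8.81% in WT mice. Of the other marker lists, S100a8 of the macrophage and neutrophil list (summed level 3.22 to 9.2 CPM for WT, 6.24 to 40.1 CPM for MiR-29ab1-/-), Col3a1 of the fibroblast list (18.8 to 31.1 and 14.8 to 44.6 CPM) and Apob of the hepatocyte list (122 to 157 and 202 to 236 CPM) were higher. Apob itself, at 107 to 144 CPM in WT and 193 to 223 CPM in MiR-29ab1-/- mice, made up most of that list's sum. Alb and Ttr of the same list had negative log2 fold changes (-1.13 and -0.65) and did not pass the cutoff. The part of any of these in the enzyme values was not tested.

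The lower members after DSS were Cyp2w1, Cyp2c55, Ces1f, Gstt1 and Aldh1b1. Cyp2w1 had 2.85, 1.67 and 1.71 CPM in WT mice and 0.772, 0.212 and 0.999 CPM in MiR-29ab1-/- mice. As without DSS, all MiR-29ab1-/- mice were below all WT mice, and its log2 fold change was again -1.62 ± 0.51 (adjusted p = 0.646 by edgeR). Cyp2c55 had 1600, 1446 and 2064 CPM against 1168, 1153 and 1374 CPM. Here its groups were apart, with a log2 fold change of -0.47 ± 0.17 (adjusted p = 0.646 by edgeR).

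Ces1f, a carboxylesterase of the Ces1 cluster, went from 84.4 ± 14.7 to 57.4 ± 14.8 CPM (-0.56 ± 0.20, with overlap) and the theta-class Gstt1 from 29.6 ± 0.88 to 23.6 ± 4.35 CPM (-0.32 ± 0.14). Aldh1b1 had 321, 266 and 360 CPM in WT mice and 192, 172 and 300 CPM in MiR-29ab1-/- mice, with the last, from mouse 3, inside the WT range. Its log2 fold change was -0.51 ± 0.22. It missed the cutoff in 4 of 6 fits without a mouse, as did Ces1f, while Gstt1 missed it in 5 and Cyp2c55 in 3.

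Among members whose genotypes were apart without reaching the cutoff, the largest log2 fold changes were those of Cyp2u1 (-0.95), a fatty acid hydroxylase, Sult6b1 (-0.87) and the alpha-class Gsta1 (0.85).

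The higher members were Cyp2c66, Cyp4f14, Gsta4, Ces2e and Akr1e1. Cyp2c66, a near neighbour of Cyp2c55 at a much lower level, had 2.18, 3.35 and 4.37 CPM in WT mice and 6.79, 5.73 and 7.58 CPM in MiR-29ab1-/- mice. All MiR-29ab1-/- mice were above all WT mice, a log2 fold change of 1.03 ± 0.28 (adjusted p = 0.646 by edgeR). Cyp4f14, a leukotriene hydroxylase, went from 97.9 ± 8.06 to 124 ± 11.9 CPM (0.34 ± 0.11) and Gsta4, which conjugates 4-hydroxynonenal, from 67.5 ± 7.74 to 85.5 ± 9.44 CPM (0.34 ± 0.12). Ces2e went from 250 ± 24.8 to 302 ± 19.6 CPM (0.27 ± 0.11). Ces2e and Akr1e1 missed the cutoff without mouse 3. Of the fits that left out a mouse, Cyp4f14 missed the cutoff in 1, Gsta4 in 3 and Ces2e in 4.

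Akr1e1, 1 of the members with a seed match shown above, had 38.01, 39.3 and 41.0 CPM in WT mice and 45.8, 46.5 and 46.7 CPM in MiR-29ab1-/- mice after DSS. These groups did not overlap (0.23 ± 0.09), and Akr1e1 missed the cutoff in 5 of 6 fits without a mouse. Without DSS it spread widely, at 38.1, 4.59, 13.9 and 17.0 CPM in WT mice and 32.2, 10.2, 31.5 and 30.0 CPM in MiR-29ab1-/- mice. Without DSS the difference was within its spread (0.49 ± 0.62). The other members shown with a match did not pass the cutoff after DSS. Their log2 fold changes there were 1.26 for Cyp26b1, 0.12 for Gstz1 and -0.05 for Cyp51.

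By family the medians after DSS were 0.18 for Akr1, -0.01 for Cyp, -0.05 for Gst, -0.06 for Aldh, -0.08 for Sult, -0.18 for Ugt and -0.30 for Ces, beside -0.0051 over all genes. Of 12 tested Akr1 genes 9 were positive, and the groups were apart in 2 of them. All 7 Gstm genes had a negative fold change, and none of them passed the cutoff. Without MiR-29ab1-/- mouse 3 all 7 were negative again and 4 of them (Gstm1, Gstm3, Gstm6 and Gstm7) were lower. The family medians without that mouse were 0.21 for Akr1, -0.08 for Cyp, -0.10 for Gst, -0.18 for Aldh, -0.15 for Sult, -0.40 for Ugt and -0.65 for Ces, beside -0.0141 over all genes. Of the lists outside the families, 3 of 18 regulators were higher and 0 lower, where 3.98% of all genes tested were higher and 3.25% lower. They were Nr1h4, the bile acid receptor (110 ± 15.1 to 150 ± 25.2 CPM), Hnf4g (21.8 ± 1.66 to 29.6 ± 4.60 CPM) and Ahrr (0.523 ± 0.11 to 1.42 ± 0.58 CPM). Among 27 tested partner enzymes, 11 cofactor genes and 12 carriers, Cyb5a and the exporter Abcg2 were higher and Hsd3b3 and Papss1 lower.

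The 16 members that were lower without DSS were all tested after DSS. Their fold change was negative again in 13 (81.2%, against 69.8% of the 225 genes lower without DSS and tested after it), and 2 of them, Cyp2w1 and Cyp2c55, passed the cutoff again (12.5%, against 13.8% of the 225). Without MiR-29ab1-/- mouse 3 of the group after DSS, 14 of the 16 were negative (87.5%, against 69.9% of 226 genes) and 8 passed the cutoff (50% against 27.0%): Ces1g, Ces2a, Cyp2c55, Cyp2w1, Cyp4b1, Gstm3, Sult1a1 and Ugt8a. With all mice, the 3 that turned were Akr1b8, Sult1c2 and Ugt2b5. Of the 3 higher members, Cyp2d12 and Cyp2d9 were tested after DSS. Both were positive again (2 of 2, against 59.3% of 280 genes), and 0 passed the cutoff (9.29% of the 280). Without mouse 3 both were negative.

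Whether a genotype difference differed between the experiments was tested as an interaction over all 14 mice. At an unadjusted p under 0.05 it was more positive after DSS in 6 of 119 tested members (5.04%, against 1.73% of all genes) and more negative in 1 (0.84% against 2.3%). Its sign was negative in 55 of the 119 (46.2%, against 50.3% of all genes). None passed at an adjusted p under 0.05 by edgeR, with a lowest adjusted p of 0.987, nor by DESeq2, which gave 7 (5.88%, against 1.86% of all genes) and 2 (1.68% against 2.41%) at the unadjusted cutoff. Without MiR-29ab1-/- mouse 3 after DSS, 6 members were more positive (4.92% against 3.28%) and 10 more negative (8.2% against 5.54%). Akr1b8 led the list. After DSS it had 84.2, 100 and 94.3 CPM in WT mice and 99.2, 131 and 91.2 CPM in MiR-29ab1-/- mice. These groups overlapped, where without DSS they had not, and the log2 fold change after DSS was 0.21, with a 95% interval of -0.12 to 0.53. The difference of the 2 fold changes was 0.99 ± 0.21 on the log2 scale (unadjusted p = 0.000301, adjusted p = 0.987 by edgeR), and it stayed between 0.82 and 1.09 with each mouse left out.

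Sult1d1 behaved in a like way with a smaller size. After DSS it had 342, 269 and 361 CPM in WT mice and 277, 309 and 318 CPM in MiR-29ab1-/- mice, with overlap. Its fold change there was -0.11 (95% interval -0.40 to 0.19), and the difference between experiments was 0.39 ± 0.17, which missed the cutoff in 7 of 14 fits that left out a mouse. Gstp1 gave 0.44 ± 0.13 and Cyp2c66 1.42 ± 0.48, both past the cutoff in all 14 of those fits. Gsta4 gave 0.59 ± 0.27 and the aldehyde dehydrogenase Aldh3b2 -0.82 ± 0.37, and they missed it in 9 and 8 of the fits. Gstp1 had a gene length of 1548 bases without DSS and 757 after it. The part of this in its difference between experiments was not tested.

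Cyp3a44, a liver-type P450, gave 3.89 ± 1.36, but on few reads. It had 2.75, 0.119, 0.555 and 0.724 CPM in WT mice without DSS and 0.135, 0.122, 0.0635 and 0 CPM in MiR-29ab1-/- mice. After DSS it had 3.22, 0.419 and 1.47 CPM against 3.24, 0.954 and 2.29 CPM. It was too low to be tested without DSS alone, where 3 reads are worth 0.165 to 0.215 CPM.

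**Figure D5:**
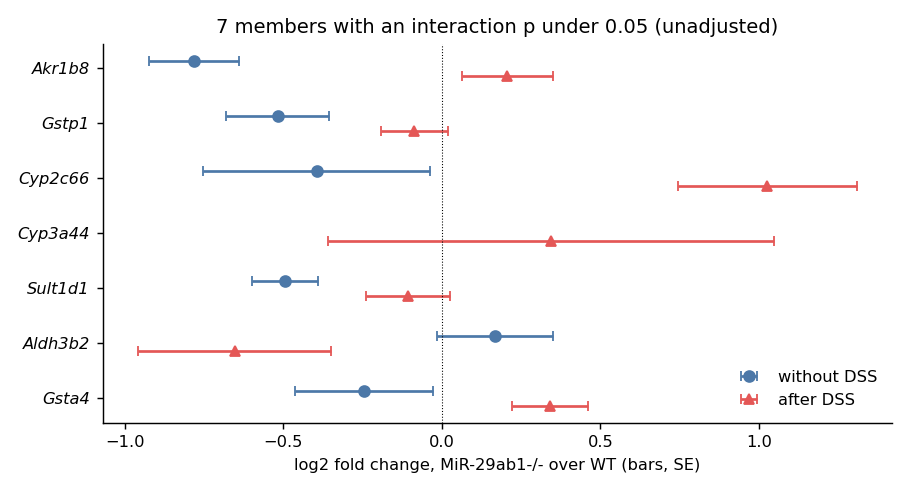
Log2 fold change of MiR-29ab1-/- over WT without DSS (circles) and after DSS (triangles), with SE as bars, for the 7 members whose difference between experiments had an unadjusted p under 0.05. Akr1b8 goes from -0.78 to 0.21 and Cyp2c66 from -0.40 to 1.03; Cyp3a44 has no circle because it was too low to test without DSS.

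Levels in the 2 experiments were set side by side in CPM without a test, since they come from separate tables with other gene lists and 21 members with another gene length. Of 106 members with a WT mean of at least 1 CPM in either experiment, 14 were at least 2-fold higher and 7 at least 2-fold lower after DSS in WT mice. The share of all genes that moved as much was not counted, here or for the 10-fold differences below. These counts therefore do not set the members apart from other genes. In both genotypes 3 members (Gstp1, Gstp2 and Ces1c) differed by 10-fold or more, and Gstp3 was without reads in 1 experiment. Gstp1 had 7.18 and 5.01 CPM in WT and MiR-29ab1-/- mice without DSS and 208 and 196 CPM after DSS. Gstp2 had 1.21 and 1.27 CPM, then 15.7 and 18.8 CPM, and Gstp3 was at 0 in all 8 mice without DSS and at 8.43 and 12.1 CPM after it.

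These 3 adjacent genes also had other lengths in the 2 tables: 1548 and 757 bases for Gstp1, 1113 and 770 for Gstp2, and 908 and 709 for Gstp3. The part of the gene models in the change, and in the interaction of Gstp1, was not tested. The genotype difference of Gstp1 without DSS rests on the low counts of that table. Ces1c ran the other way, at 2.96 and 9.001 CPM without DSS and 0.294 and 0.484 CPM after it. Cyp2c55, the most abundant member by length, had 912 ± 313 CPM in WT mice without DSS and 1703 ± 322 CPM after it. After DSS the members' share of reads was 1.01% to 1.14% for WT and 0.808% to 1.06% for MiR-29ab1-/- mice.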

How the data were processed

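Tissue RNA of 14 mice was sequenced by the authors, who deposited whole-number read counts per gene in 1 table without DSS (8 mice) and 1 after DSS (6 mice). The labels name HISAT2 and DESeq2 in the submitters' processing notes. Their versions and roles, the genome build, the counter and its use of strand are not given in the sources used here. The 14 FPKM columns and the authors' own fold changes and p-values were not used.

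Columns were matched to groups by name. The numbers in the column names after DSS are not those of the labels, so they only name mice. Genes were kept by edgeR's filterByExpr (at least 10 reads in enough mice, 15 in total), scaled by TMM in each table and tested by edgeR's quasi-likelihood test (edgeR 4.0.16, R 4.3.3) over all genes, with Benjamini-Hochberg adjustment and no covariate. CPM used the same scaling, and RPKM divided it by the deposited gene length. The interaction used the genes of both tables. SE was the log2 fold change over the root of F, and 95% intervals used the fit's degrees of freedom. Where no separate origin of the mice is stated, p-values measure the spread between these samples. Counts of single reads carry counting error, with a floor of 3 reads.

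Counts were simulated with 200 genes changed 2-fold (fitted median log2 sizes of 1.03 without DSS and 0.993 after it). The fit without DSS (15441 genes) found 182 at an unadjusted p under 0.05 and 127 after adjustment. That after DSS (14908 genes) found 183 and 124. Smaller changes, such as the -0.49 of Sult1d1 without DSS, were not simulated. Alternatives were RLE scaling, DESeq2 1.42.0, 2 other filters, protein-coding genes alone, 1 model over 14 mice, a replicate block and each mouse left out.

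Members and lists were chosen with earlier results of these data known. Genes named with values were Akr1b8 and Sult1d1, the 3 highest members per family by RPKM in WT mice without DSS, members at an unadjusted p under 0.05 (the 15 with the smallest p where more), the 5 largest changes without overlap per experiment, members with an interaction, members within 15 Mb of Mir29a and members that differed 10-fold between experiments. Gene coordinates are those of GENCODE vM21 (GRCm38), where all 222 members had the same start and end as in the tables. Replicate numbers without DSS did not pair the mice: the correlations of same-numbered deviations were -0.022, 0.148, -0.218 and -0.098. A marker, a regulator and what rests on them are not reported here.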

Additional observations from a re-analysis of the deposited data

Results flagged for a closer look

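Single mice lay apart from the other 3 of their group in 5 of 94 groups of members checked without DSS, by a Dixon test of the gap against the range, where chance gives about 1 in 20. Akr1c12 had 97.4 CPM in WT mouse 2, against 108.1 to 109.5 CPM in the others. It had 114.7 CPM in MiR-29ab1-/- mouse 3, against 98.8 to 101.2 CPM. Akr1c19 had 110.9 CPM in MiR-29ab1-/- mouse 1, against 134.6 to 139.3 CPM. Akr1e1 had 10.2 CPM in MiR-29ab1-/- mouse 2, against 30.0 to 32.2 CPM, and Gsta1 had 5.31 CPM in WT mouse 2, against 8.13 to 8.70 CPM.

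The interaction of genotype and experiment, after DSS minus without on the log2 scale, had an unadjusted p under 0.05 in 7 of 119 tested members. It was more positive in 6 (5.04%, against 1.73% of all genes tested) and more negative in 1 (0.84% against 2.3%). Its value was 0.99 for Akr1b8, 0.44 for Gstp1, 1.42 for Cyp2c66 and 3.89 for Cyp3a44. Sult1d1 had 0.39, Aldh3b2 -0.82 and Gsta4 0.59. None passed after adjustment over all genes in edgeR. Gstp1 had another gene length in each experiment.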

How the results depend on the processing

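The count of 16 lower members without DSS stayed within 1.5 times of that number under every alternative except leaving out WT mouse 3. Its share did not stay as close. Without a filter on low counts it was 16 of 166 (9.64%, against 1.34% of all genes), and in the main fit 15.1% against 1.58%. Lower members after adjustment numbered 0 in edgeR, 3 with DESeq2 and 1 without a filter on low counts. All genes past adjustment, in either direction, numbered 3, 23 and 11 in these fits. After DSS the 5 higher and 5 lower of 110 (4.55% each) became 8 and 11 with DESeq2 (7.27% and 10%, against 4.64% and 3.27% of all genes). Without a filter they were 8 and 8 of 166, a share of 4.82% each (against 3.82% and 2.88%) near that of the main fit. The higher became 2 of 119 (1.68%, against 3.23%) in 1 model over 14 mice. The 1 lower member of the interaction (0.84%, against 2.3% of all genes) became 2 with DESeq2 (1.68% against 2.41%) and 2 without a filter (1.16% against 2.19%). With a mouse left out, the ranges were 1 to 4 higher and 10 to 22 lower without DSS, 1 to 8 and 1 to 25 after DSS (adjusted lower, 0 to 2), and 4 to 9 and 0 to 10 for the interaction. The higher count without DSS was 1 (0.909%, against 2.22% of all genes) without MiR-29ab1-/- mouse 1. The 10 of the interaction (8.2%, against 5.54%) came without MiR-29ab1-/- mouse 3 after DSS. The causes were not tested. Signs turned with a mouse left out in members that had not passed: without DSS the log2 fold change ranged from -0.0148 to 0.28 in Aldh3b2, from -0.0010 to 0.56 in Akr1b10 and from -0.54 to 0.0515 in Akr1b7. After DSS it ranged from -0.085 to 0.18 in Ugt2b5, from -0.12 to 1.21 in Cyp3a44, from -0.14 to 0.21 in Sult1c2, from -1.23 to 0.15 in Ces1g, from -0.28 to 0.71 in Cyp2d12 and from -0.0593 to 1.005 in Cyp2d9. With the replicate block, 17 members were lower and 2 higher without DSS and 0 passed after adjustment. No paired analysis was possible because the columns after DSS do not carry the numbers of the labels, which holds for the comparison after DSS and the interaction. Members with few reads, such as Cyp3a44, were limited by depth.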
